A study of Homo sapiens with 4 samples.

Results

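Transcripts of 10 human genes that bring cystine into the cell and make, recycle or use glutathione were compared in 769-P, a renal clear cell carcinoma line, with and without induction of a short hairpin RNA (shRNA) directed at USP35, an enzyme that removes ubiquitin from proteins. The genes were taken by name from the 58735 genes listed for each library. They are SLC7A11, GCLC, GCLM, GSS, GSR, GGCT, CTH, CBS, MGST1 and GSTP1, and all 10 were found. Levels are in FPKM, the fragments counted for a gene divided by its length and by a library size whose definition is not given. The doxycycline group held 2 libraries from cells given doxycycline at 1 µg/ml for 4 days, and the control group held 2 libraries from untreated cells. Both groups carried the stably transfected inducible hairpin construct and were grown with puromycin. The labels do not say whether the line is a clone or a pool, and no doxycycline-treated library without the hairpin was analysed here. Whether the replicates were separate cultures is not stated either. The p-values therefore reflect the spread among these 4 libraries alone, and that spread may be technical.

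Glutathione is a tripeptide of glutamate, cysteine and glycine that keeps the cytosol reduced and supplies electrons to peroxidases and transferases. Cysteine is usually the scarce part, and cells obtain it by importing its oxidized form, cystine, or by transsulfuration from methionine. Glutamate-cysteine ligase joins glutamate to cysteine, glutathione synthetase adds glycine, and glutathione reductase returns the oxidized form to the reduced form with NADPH. In kidney tubule cells glutathione is also broken down at the brush border and its amino acids are taken up again.

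Among the 10 genes, SLC7A11, the cystine carrier, and GCLC, whose product forms the bond between glutamate and cysteine, stood at about 2.43 and 2.51 times their control means in the doxycycline group, and GSTP1, a cytosolic glutathione transferase, had 0 reads in all 4 libraries. Testing was limited to genes averaging 1 FPKM or more across libraries, which kept 9 of the 10 genes and 12029 of 58735 in all. With limma-trend on log2(FPKM + 1), 0 of these 9 genes had an adjusted p under 0.05, and neither did any of the 12029 genes, so the share of genes called over the whole table was 0%. The lowest adjusted p over the whole table was 0.0573. At an unadjusted p under 0.05, 3 of the 9 genes were higher (SLC7A11, GCLC and CTH) and 0 were lower, against 6.47% of all genes tested that were higher and 11.9% that were lower. For 6 of the 9 genes both doxycycline values exceeded both control values, and for 1, GGCT, both were under them. Over all genes tested these shares were 24.3% above and 28.9% below, so that the groups did not overlap for 53.2% of genes. The median log2 difference of the 9 genes was 0.43, with -0.03 over all genes tested, and no comparison of these medians was tested. CTH was kept only through its values in the doxycycline libraries, and CBS only through those in the controls. The median and the counts above both controls and at an unadjusted p under 0.05 therefore include CTH, a gene that had to differ to be tested. They support nothing about the 9 genes as a group.

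The libraries held between 16319640 and 18764546 reads. The mitochondrial genome gave 7.44% and 14.6% of reads in doxycycline replicates 1 and 2, against 8.21% and 8.504% in the controls. USP35 itself stood at 2.11 and 2.54 FPKM with doxycycline, against 3.31 and 4.19 FPKM in the controls (limma adjusted p = 0.256). Of 8 markers of kidney carcinoma and tubule epithelium, PAX8 was present at 49.4 and 38.5 FPKM with doxycycline and 48.6 and 53.9 FPKM in the controls, while CA9, a hypoxia-induced carbonic anhydrase often used to mark clear cell carcinoma, lay between 0 and 0.0377 FPKM. The 8 markers summed to 568 and 542 FPKM with doxycycline and 762 and 636 FPKM in the controls, and the part of this difference in the results below was not tested. Summed markers of fibroblasts, endothelium and leukocytes were at most 0.804 FPKM in any library, with LUM, PECAM1, CDH5, KDR, CD3E and LYZ at 0 reads throughout. In such bulk RNA, fewer cells of a type and less RNA per cell cannot be told apart.

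**Figure D1:**
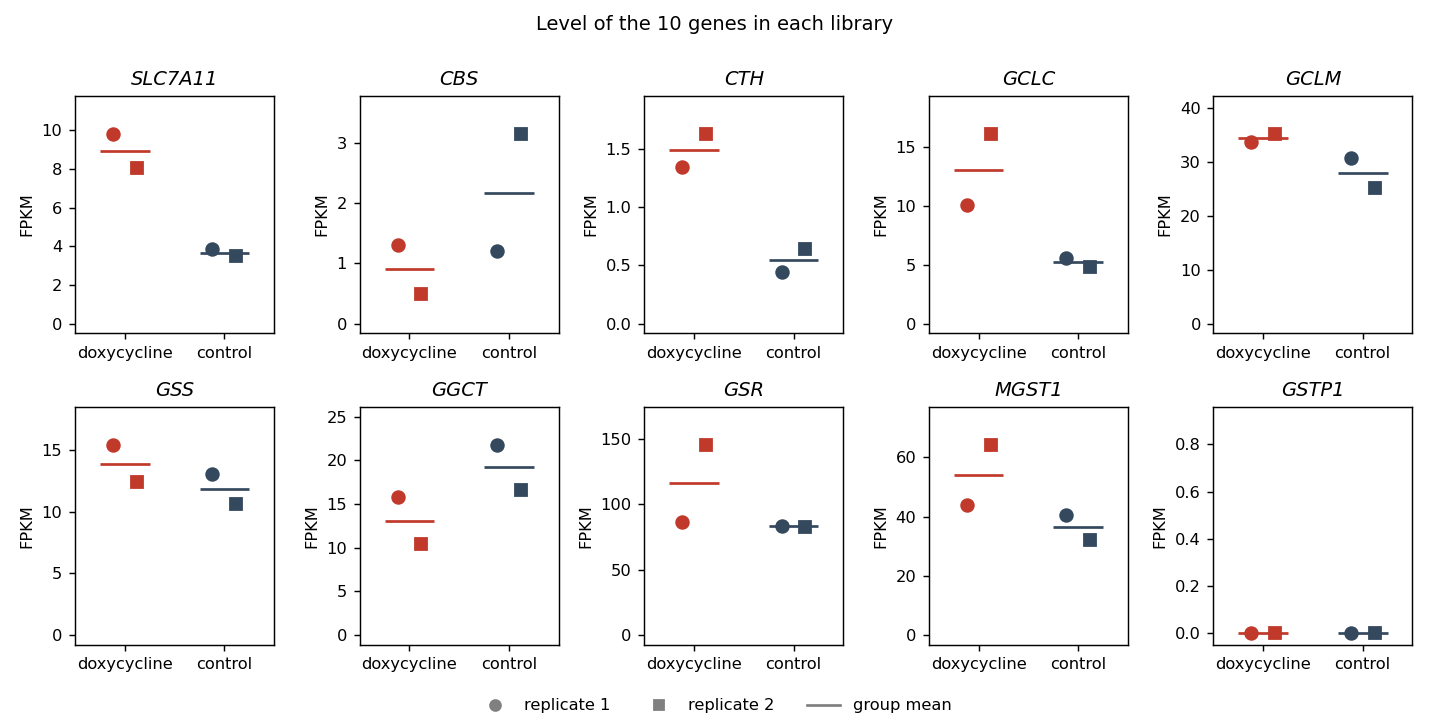
Each panel plots the FPKM of a gene on a linear axis for the doxycycline libraries (red) and the control libraries (dark), with circles for replicate 1, squares for replicate 2 and a line at the group mean. SLC7A11, GCLC and CTH show doxycycline values well apart from the controls, GSR is high in doxycycline replicate 2 at 145 FPKM, and GSTP1 is at 0 in all 4 libraries.

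SLC7A11 (ENSG00000151012, GRCh38 chromosome 4, 138164097 to 138242349, minus strand) encodes the light chain of the antiporter that takes up cystine in exchange for glutamate. Its level was 9.83 and 8.03 FPKM in doxycycline replicates 1 and 2, against 3.86 and 3.501 FPKM in controls 1 and 2, from 1782 and 1419 reads against 590 and 588. Both doxycycline libraries were high, and the gap to the controls was wider than the spread within either group. The group means were 8.93 ± 1.27 FPKM with doxycycline and 3.68 ± 0.25 FPKM in controls (SD, n = 2 each), and the log2 difference was 1.08 (standard error 0.19, limma adjusted p = 0.0696). The difference ranked 182 from the top among the 12029 genes tested. SLC7A11 passed the threshold when genes had to average 5 FPKM or more (limma adjusted p = 0.0433), where it was the 1 of 7 such genes called. Of the 6932 genes in that fit 3.77% were called, 0.606% higher and 3.16% lower. Both control values lie under that filter, so SLC7A11 entered this fit only through its doxycycline values and the call is no support. Leaving out 1 library gave limma adjusted p = 0.00177 without doxycycline replicate 1 and 4.995e-04 without doxycycline replicate 2, where 32.8% and 13.3% of all genes were called. It gave 0.760 without control 1 and 0.561 without control 2, where 0% were called.

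The heavy chain that carries SLC7A11 to the plasma membrane is SLC3A2, which also serves other amino acid carriers. SLC3A2 was at 62.9 and 20.1 FPKM with doxycycline, against 43.8 and 32.1 FPKM in the controls, so the doxycycline libraries lay on opposite sides of the controls. The ratio of SLC7A11 to SLC3A2 in FPKM was 0.156 and 0.400 with doxycycline, against 0.088 and 0.109 in the controls, higher in both doxycycline libraries. SLC3A2 was taken up for this ratio as the carrier's known partner. A strand-opposed gene, SLC7A11-AS1, shares 865 of the 9645 exonic bases of SLC7A11, and it held 17 and 10 reads with doxycycline and 7 and 4 reads in the controls. Strandedness is not given in the sources used here, so reads of the shared bases cannot be assigned to a strand.

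GCLC (ENSG00000001084, chromosome 6, 53497341 to 53616970, minus strand) and GCLM (ENSG00000023909, chromosome 1, 93885205 to 93909456, minus strand) encode the catalytic and the modifier subunit of glutamate-cysteine ligase, the rate-limiting enzyme of glutathione synthesis. The bases upstream of their RefSeq starts are shown because both genes are known targets of NRF2, which binds antioxidant response elements. Capitals mark matches to TGACNNNGC, the core of that element, searched on both strands. Each run covers the 250 bases before the start, 5′ to 3′ on the gene's strand, in RefSeq's GRCh38.p14 windows at chr6:53545102-53545351 and chr1:93909431-93909680.
GCLC: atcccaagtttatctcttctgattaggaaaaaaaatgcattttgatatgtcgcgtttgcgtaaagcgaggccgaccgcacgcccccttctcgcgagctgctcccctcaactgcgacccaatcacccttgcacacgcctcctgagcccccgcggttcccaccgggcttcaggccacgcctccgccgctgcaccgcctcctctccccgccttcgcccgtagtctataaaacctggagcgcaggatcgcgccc
GCLM: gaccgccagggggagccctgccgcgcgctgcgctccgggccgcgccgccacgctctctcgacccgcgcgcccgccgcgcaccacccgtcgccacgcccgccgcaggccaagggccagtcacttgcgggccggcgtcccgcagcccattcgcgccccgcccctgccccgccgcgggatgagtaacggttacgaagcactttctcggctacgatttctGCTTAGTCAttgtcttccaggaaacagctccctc

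The GCLM run holds the motif at 34 to 26 bases before the start, on the opposite strand, as TGACTAAGC. The GCLC run holds none, and neither run holds TGATGNAA, the core of the element bound by CEBP and ATF factors. Only these 250 bases were searched, so a motif farther upstream would be missed. The counted gene model of GCLC begins upstream of its window, and that of GCLM begins inside its window. Of 35116 RefSeq promoter windows, 10.9% hold the first motif and 3.14% the second within the same 250 bases. Windows were at hand for 6 of the 10 genes, 10 windows in all, and 3 of the windows held the first motif. Besides that of GCLM, these were the window of GSTP1 and 1 of the 3 windows of CBS. A match is a description of letters and not of binding.

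GCLC stood at 10.0 and 16.1 FPKM in doxycycline replicates 1 and 2, against 5.56 and 4.84 FPKM in controls 1 and 2. The doxycycline libraries were both high and also differed from each other, with replicate 2 the higher. The means were 13.1 ± 4.30 FPKM with doxycycline and 5.20 ± 0.50 FPKM in controls (SD, n = 2 each), with a log2 difference of 1.15 (standard error 0.25, limma adjusted p = 0.107). Without doxycycline replicate 1 the difference was 1.47, and without replicate 2 it was 0.83. Without control 1 it was 1.23, and without control 2 it was 1.07. The lincRNA AL033397.1 on the same strand shares 529 of the 8646 exonic bases of GCLC, and it held 12 and 49 reads with doxycycline and 3 and 9 reads in the controls, beside 1628 and 2548 reads of GCLC with doxycycline and 762 and 729 in the controls.

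GCLM, the more abundant subunit transcript per kilobase, showed a smaller difference. It was at 33.8 and 35.3 FPKM with doxycycline, against 30.8 and 25.2 FPKM in the controls, and the control libraries differed from each other by more than the doxycycline libraries did. Its log2 difference was 0.30 (standard error 0.21, limma adjusted p = 0.477). The ratio of GCLC to GCLM, which does not depend on library scaling, was 0.296 and 0.456 in the doxycycline libraries, against 0.1803 and 0.192 in the controls. Both doxycycline ratios lay above both control ratios. With 2 libraries against 2, an exact two-sided permutation test of such a value cannot go below p = 0.333.

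GSS (ENSG00000100983, chromosome 20, 34928433 to 34956027, minus strand), glutathione synthetase, adds glycine in the second step. It was at 15.5 and 12.4 FPKM with doxycycline, against 13.1 and 10.7 FPKM in the controls, so the groups overlapped. Its log2 difference was 0.21 (standard error 0.21, limma adjusted p = 0.617), about as large as its error, and lay between 0.0621 without doxycycline replicate 1 and 0.36 without replicate 2.

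GSR (ENSG00000104687, chromosome 8, 30678061 to 30727999, minus strand), glutathione reductase, was the most abundant of the 10 transcripts per kilobase in every library. It was at 86.6 and 145 FPKM with doxycycline, against 83.4 and 82.6 FPKM in the controls. The controls agreed closely, doxycycline replicate 1 lay just above them, and replicate 2 alone stood apart. The log2 difference over both was 0.43 (standard error 0.30, limma adjusted p = 0.479), made up of 0.0601 in replicate 1 and 0.80 in replicate 2. Without control 1 the log2 difference was 0.44, and without control 2 it was 0.42. GSR over GSS in FPKM was 5.5997 and 11.7 with doxycycline, against 6.36 and 7.74 in the controls, a ratio that also set replicate 2 alone apart.

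MGST1 (ENSG00000008394, chromosome 12, 16347142 to 16609259, plus strand), a membrane-bound glutathione transferase that also reduces lipid hydroperoxides, followed the same order. It was at 43.9 and 64.3 FPKM with doxycycline, against 40.7 and 32.2 FPKM in the controls. Replicate 2 was again the higher, and replicate 1 lay within 4 FPKM of control 1. The log2 difference was 0.54 (standard error 0.27, limma adjusted p = 0.341). It was 0.81 without doxycycline replicate 1 and 0.27 without replicate 2.

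GGCT (ENSG00000006625, chromosome 7, 30496621 to 30504844, minus strand), which cyclizes the glutamyl part of gamma-glutamyl dipeptides, was the single gene of the 9 with both doxycycline libraries below both controls. It stood at 15.8 and 10.4 FPKM with doxycycline, against 21.8 and 16.6 FPKM in the controls, where doxycycline replicate 1 and control 2 were close. The log2 difference was -0.53 (standard error 0.26, limma adjusted p = 0.341). It was -0.81 without doxycycline replicate 1 and -0.25 without replicate 2. AC005154.5, listed as a protein-coding gene on the same strand, shares 441 of the 1597 exonic bases of GGCT and held 0 reads in all 4 libraries.

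How many of the 9 genes passed depended on which libraries entered. Without doxycycline replicate 1, 5 passed as higher (GCLC, SLC7A11, MGST1, GSR and CTH) and 2 as lower (GGCT and CBS), among which CTH and CBS had been kept through 1 group alone, but 32.8% of all genes were then called, 12.9% higher and 19.9% lower (limma). Without doxycycline replicate 2, GCLC and SLC7A11 passed, with 4.95% of all genes called higher and 8.39% lower. Such a fit assumes that the lone doxycycline library varies like the controls. Without either control, 0 of the 9 passed. With limma-voom and library quality weights, chosen after seeing the data, GCLC and SLC7A11 passed while 0.474% of all genes were called higher and 1.41% lower. Under a replicate block the same pair passed, with 6.52% of all genes called, 1.68% higher.

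**Figure D2:**
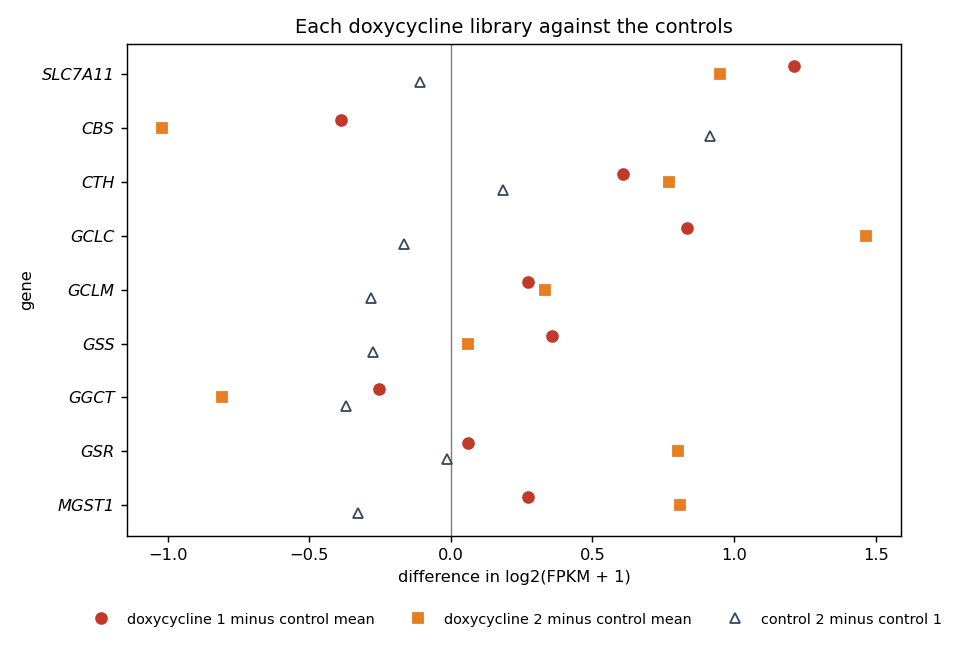
For each of the 9 genes tested, in order of their place in the pathway, the difference in log2(FPKM + 1) is drawn for doxycycline replicate 1 (red circles) and replicate 2 (orange squares), each minus the control mean, and for control 2 minus control 1 (open triangles). Replicate 2 lies farther from zero than replicate 1 for 7 of the 9 genes, all but SLC7A11 and GSS, a count not made over all genes tested.

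Replicate 2 lay farther from the controls than replicate 1 for 7 of the 9 genes, and the 2 exceptions were SLC7A11 and GSS. The signs agreed between the doxycycline libraries for all 9 genes. Neither count was made over all genes tested, and both libraries were set against the same control mean. These counts therefore describe the libraries and show no trait particular to these genes. Medians over the 9 genes were 0.27 in replicate 1 and 0.77 in replicate 2 on the log2 scale, beside -0.17 for control 2 minus control 1. Over all genes tested the corresponding medians were -0.02, -0.03 and -0.05. Replicate 2 was also the library with the higher mitochondrial share, whose part in this was not tested. After rescaling without mitochondrially encoded genes the log2 differences of SLC7A11 and GCLC were 1.12 and 1.19.

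CTH and CBS form the transsulfuration route, in which CBS joins homocysteine to serine and CTH releases cysteine from the product. CTH (ENSG00000116761, chromosome 1, 70411218 to 70439851, plus strand) was low, with 1.34 and 1.63 FPKM in the doxycycline libraries, against 0.444 and 0.642 FPKM in the controls. These values rested on 61 and 72 reads with doxycycline and 17 and 27 reads in the controls, and the groups did not overlap. The ratio of means was 2.74, the highest of the 9 genes, and the log2 difference was 0.69 (standard error 0.23, limma adjusted p = 0.21). CTH averaged 1.01 FPKM over all libraries and 0.543 FPKM in the controls, so it was tested only through its doxycycline values. Its ratio, its place among the 9 genes and the lack of overlap are therefore partly set by the filter. At so low a level the log2(FPKM + 1) scale understates the change, and with a pseudocount of 0.1 the difference was 1.31.

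CBS (ENSG00000160200, chromosome 21, 43053191 to 43076943, minus strand) shares near-identical sequence with the annotated copy CBSL on the same chromosome (6444869 to 6468040), and reads can be split between them. CBS was listed at 1.31 and 0.491 FPKM with doxycycline, against 1.198 and 3.15 FPKM in the controls, with overlapping groups. Its log2 difference of -0.70 did not pass (limma adjusted p = 0.375), and CBS was tested only through its control values. CBSL was listed at 3.28 and 0.450 FPKM with doxycycline, against 4.09 and 1.205 FPKM in the controls. The share of the joint reads listed under CBS was 40.3% and 64.9% with doxycycline, against 33.2% and 81.6% in the controls, so the controls alone differed by far in how reads fell between the copies.

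Adding both copies removed most of the spread between the controls. The sum was 414 reads in doxycycline replicate 1 and 94 reads in replicate 2, against 389 and 456 reads in the controls. Those sums are not scaled to depth, which differed far less than they did. Doxycycline replicate 1 thus lay with the controls and replicate 2 lay far below all 3 other libraries. The ratio of means was 0.571 for the sum and 0.414 for CBS alone. For CBS itself the values are uncertain.

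**Figure D3:**
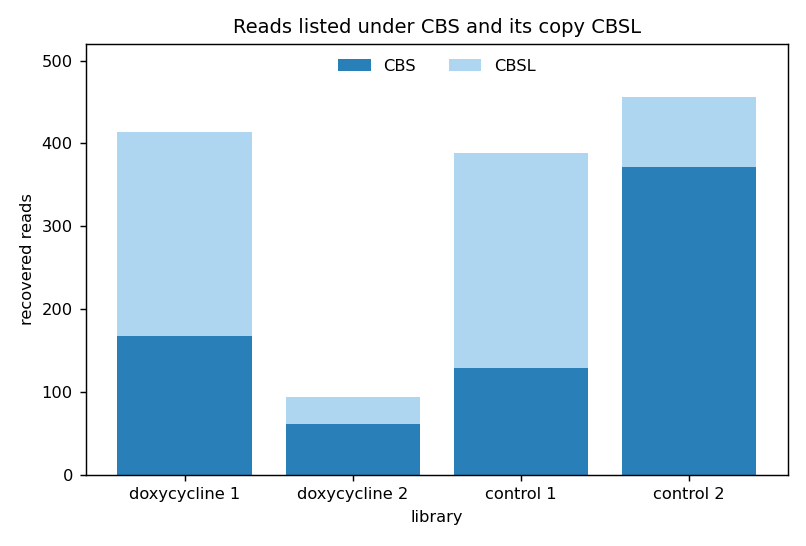
Bars give recovered reads listed under CBS (dark) and CBSL (light) in each library on a linear axis from 0. The division between the copies differs from library to library, while the stacked height is 94 reads in doxycycline replicate 2 and 389 to 456 reads in the other libraries.

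GSTP1 (ENSG00000084207, chromosome 11, 67583595 to 67586656, plus strand), the pi-class cytosolic glutathione transferase and a transcript found at high levels in many epithelial cell lines, had 0 reads in each of the 4 libraries. As a limit for a count of 0, the level worth 3 reads over its gene length was taken. This limit was 0.0835 and 0.0857 FPKM in doxycycline replicates 1 and 2, and 0.099 and 0.0901 FPKM in controls 1 and 2. It is approximate, covers counting error alone and holds only if reads of the gene were counted. Whether the authors' alignment or counting lost its reads was not tested, so the 0 is what the files list and not a measured absence. None of 12 transcripts used by every cell, such as GAPDH and ACTB, was at 0 in any library, and no other annotated gene overlaps GSTP1. Its processed pseudogene GSTP1P1 held 3 and 0 reads with doxycycline and 0 and 0 reads in the controls. NDUFV1, the next protein-coding gene, starting 18997 bases beyond the end of GSTP1, was at 31.3 and 25.2 FPKM with doxycycline and 34.4 and 29.02 FPKM in the controls. CABP2, the nearest on the other side, 59078 bases away, also had 0 reads, and CDK2AP2 at 74946 bases stood at 32.4 and 22.6 FPKM with doxycycline and 45.8 and 41.0 FPKM in the controls. These neighbours and the pseudogene were chosen after the 0 of GSTP1 was seen. Of 19951 protein-coding genes, 3991 (20.004%) had 0 reads in all 4 libraries.

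The bases upstream of GSTP1 are shown because it is the member with no reads and its window holds the motif TGACNNNGC (capitals), at 66 to 58 bases before the RefSeq start on the gene's strand. The run covers chr11:67583562-67583811 on GRCh38.p14, plus strand, 5′ to 3′.
GSTP1: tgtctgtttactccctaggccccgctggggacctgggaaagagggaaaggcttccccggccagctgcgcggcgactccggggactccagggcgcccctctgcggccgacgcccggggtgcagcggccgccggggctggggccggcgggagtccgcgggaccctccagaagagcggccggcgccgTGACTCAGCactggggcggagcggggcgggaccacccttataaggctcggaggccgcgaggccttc

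The gene model in the files begins inside this window. It holds 28 CpG dinucleotides, against 36 in the GCLM run, 24 in the GCLC run and a median of 11 over all windows, and 84.1% of windows hold fewer than 28. With no read in either group, GSTP1 entered no test of doxycycline against control.

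Per kilobase, the order of levels was GSR, MGST1 and GCLM in every library, with GGCT, GSS and GCLC next and SLC7A11, CTH and CBS below. The ranges over the 4 libraries were 82.6 to 145 FPKM for GSR, 32.2 to 64.3 FPKM for MGST1 and 25.2 to 35.3 FPKM for GCLM, so MGST1 and GCLM overlapped across libraries. GGCT (10.4 to 21.8 FPKM), GSS (10.7 to 15.5 FPKM) and GCLC (4.84 to 16.1 FPKM) also overlapped, and GCLC changed places among them, standing below GGCT and GSS in doxycycline replicate 1 and in both controls and above both in doxycycline replicate 2. SLC7A11 came next in every library. Among all genes tested, SLC7A11 exceeded 63.9% and 58.6% of genes in the doxycycline libraries, against 35.4% and 32.4% in the controls, and GCLC exceeded 64.5% and 78.0% against 45.8% and 42.0%.

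**Figure D4:**
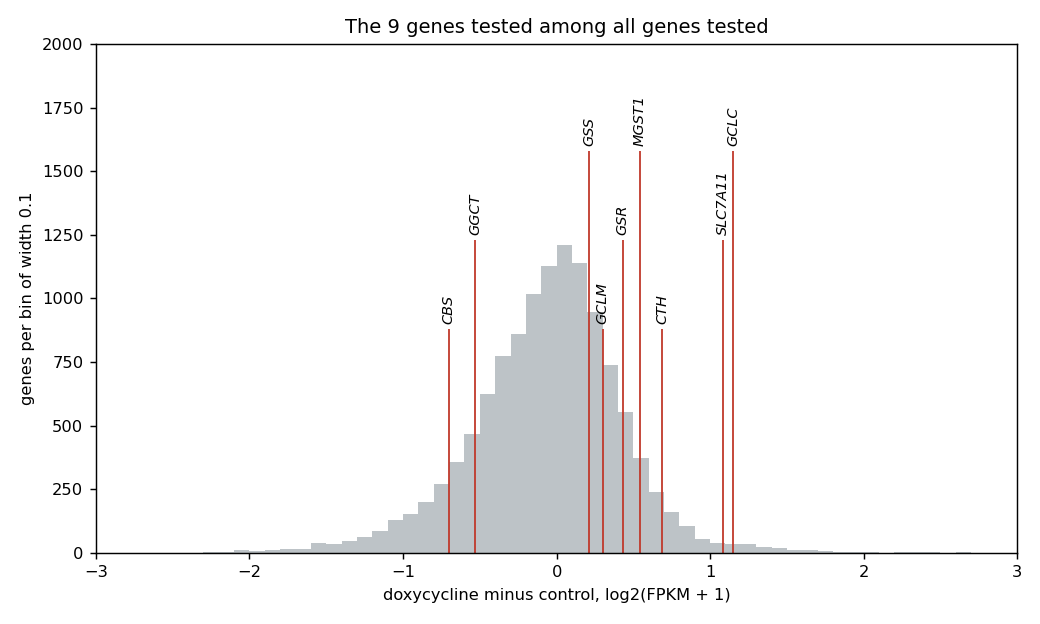
The histogram counts all 12029 genes tested by their log2 difference, doxycycline minus control (bins of 0.1, 4 genes beyond ±3 not shown), and red lines mark the 9 genes. GCLC at 1.15 and SLC7A11 at 1.08 lie in the upper tail, and CBS at -0.70 and GGCT at -0.53 lie below the centre.

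Genes around this core were taken from 9 lists with 118 names, of which 116 were found and 86 were tested. None of the 86 passed (0 higher and 0 lower, limma), 19 lay above both controls (22.1%) and 13 below both (15.1%), against 24.3% and 28.9% of all genes tested. At an unadjusted p under 0.05 there were 6 higher and 4 lower, against 6.47% and 11.9% of all genes tested. GLRX and GSTA4 among those 6, and SLC1A4 among the 19, were kept only through their doxycycline values, so these counts are given as a description. The median over the 86 was 0.03, and the lists' own medians lay between -0.11 for cystine and cysteine transport and for transcriptional regulators and 0.22 for glutathione transport. These medians differed between the doxycycline libraries. With replicates 1 and 2 each taken alone against the controls, cystine and cysteine transport had medians of 0.52 and -0.48, and the regulators 0.19 and -0.52. For glutathione breakdown it was -0.0532 and -0.37, and for glutathione transport 0.0799 and 0.30. The 2 members of lowest p in each list are given next, with none of them past the threshold.

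In cystine and cysteine transport (6 of 8 tested), SLC1A1, a glutamate transporter that also carries cysteine, was at 6.08 and 12.1 FPKM with doxycycline, against 2.95 and 3.76 FPKM in the controls (log2 difference 1.15, limma adjusted p = 0.158). SLC1A4, a neutral amino acid transporter, was at 2.44 and 0.669 FPKM with doxycycline, against 0.654 and 0.588 FPKM, high in replicate 1 alone. Among 15 genes of the methionine cycle and sulfur use, AHCYL2 was at 2.87 and 4.90 FPKM with doxycycline, against 1.82 and 2.14 FPKM in the controls. CSAD, a decarboxylase in taurine synthesis, was at 4.42 and 2.72 FPKM with doxycycline, against 2.38 and 1.56 FPKM in the controls. All 4 genes lay above both controls, which their choice by low p favours. In these lists 2 of 6 and 3 of 15 tested genes lay above both controls, against 24.3% of all genes tested.

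Glutathione breakdown (6 of 13 tested) held ANPEP and CHAC2, both lower with doxycycline in value. ANPEP, a brush border aminopeptidase that splits the cysteinyl-glycine left from glutathione, was at 5.72 and 11.03 FPKM with doxycycline, against 23.6 and 23.6 FPKM in the controls (log2 difference -1.45, limma adjusted p = 0.0943). CHAC2, a cytosolic glutathione-degrading cyclotransferase, was at 3.42 and 4.79 FPKM, against 8.21 and 6.87 FPKM in the controls. Both doxycycline values of either gene lay below both controls, which their choice by low p favours. Of the 6 tested genes 2 lay below both controls and 1 above, against 28.9% and 24.3% of all genes tested. The list's median was -0.0015 and turned positive under quantile normalization. LAP3, CNDP2 and CHAC1 had positive log2 differences of 0.45, 0.17 and 0.88. CHAC1 was at 19.9 and 1.35 FPKM with doxycycline, against 2.97 and 2.65 FPKM in the controls, high in replicate 1 alone. GGT1, which begins glutathione breakdown at the cell surface, was at 39.1 and 49.1 FPKM with doxycycline and 48.5 and 50.8 FPKM in the controls, a gene given here for its role and chosen after its values were seen.

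Of the 4 glutathione peroxidases tested, GPX3, the secreted form, was at 5.10 and 12.7 FPKM with doxycycline, against 3.01 and 2.94 FPKM in the controls (log2 difference 1.202, limma adjusted p = 0.191). GPX1, the abundant cytosolic form, was at 141 and 60.9 FPKM with doxycycline, against 154 and 115 FPKM in the controls, with overlapping groups. Among 11 other glutathione transferases, GSTA4 was at 1.44 and 2.49 FPKM with doxycycline, against 0.580 and 1.03 FPKM, and LANCL1 was at 23.6 and 36.0 FPKM, against 18.7 and 19.5 FPKM. Of 14 glutaredoxin and NADPH genes, GLRX, a glutaredoxin, was at 1.89 and 3.10 FPKM with doxycycline, against 1.04 and 0.750 FPKM. IDH1, a cytosolic source of NADPH, was at 46.2 and 43.7 FPKM with doxycycline, against 31.2 and 28.8 FPKM in the controls (limma adjusted p = 0.226), with close agreement inside each group.

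For glutathione transport (9 of 10 tested), SLC25A10, a mitochondrial dicarboxylate carrier, was at 5.99 and 4.06 FPKM with doxycycline, against 11.6 and 10.3 FPKM in the controls (log2 difference -1.001, limma adjusted p = 0.107). ABCC2, an export pump for glutathione conjugates, was at 45.1 and 79.7 FPKM with doxycycline, against 32.3 and 40.0 FPKM. Of 8 genes of glutamate and glycine supply, SHMT1, which makes glycine from serine, was at 6.41 and 11.2 FPKM with doxycycline, against 14.6 and 15.1 FPKM. GLUD1, glutamate dehydrogenase, was at 70.8 and 127 FPKM with doxycycline, against 68.6 and 63.0 FPKM, high chiefly in replicate 2.

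**Figure D5:**
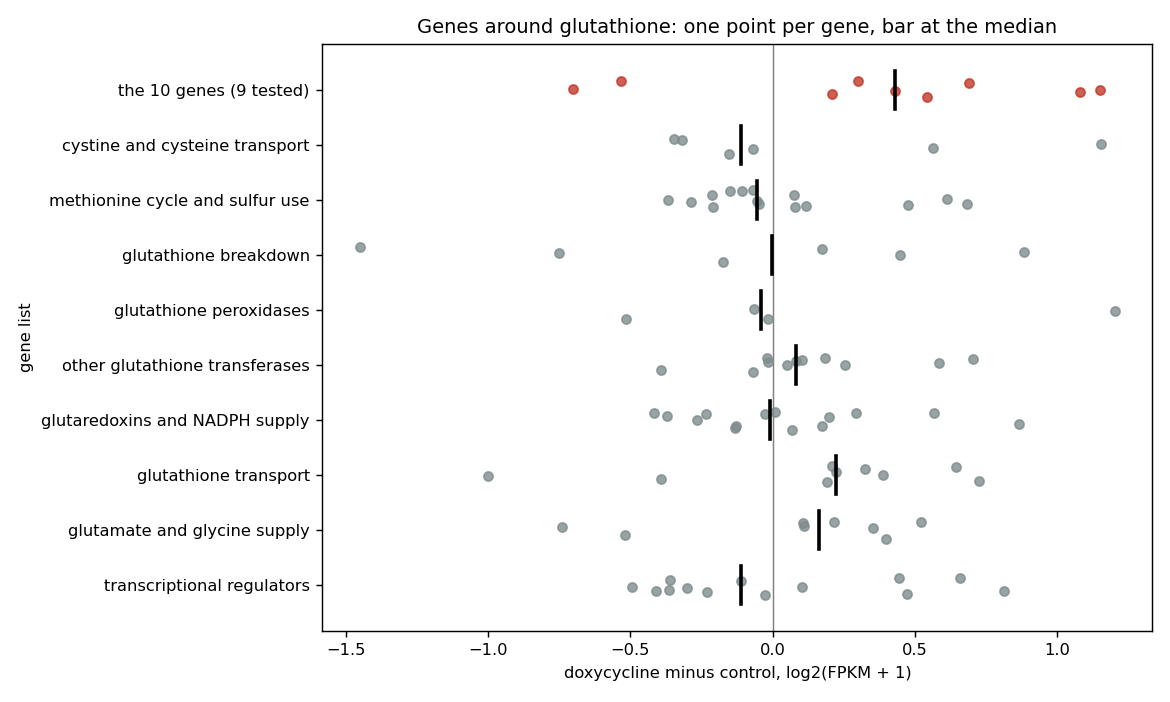
Each point is a tested gene placed by its log2 difference, doxycycline minus control, in rows for the 9 genes (red) and the 9 surrounding lists (grey), with a black bar at the row's median. The median of the 9 genes is 0.43, and the medians of the lists lie between -0.11 and 0.22. Under quantile normalization every negative list median except that of cystine and cysteine transport turns positive.

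All 13 regulators listed were tested. NFE2L2, which encodes NRF2, was at 22.0 and 35.9 FPKM with doxycycline, against 18.3 and 16.7 FPKM in the controls (log2 difference 0.66, limma adjusted p = 0.279). MAFF, a small MAF partner, was at 1.77 and 0.768 FPKM, against 2.25 and 1.99 FPKM in the controls. ATF4, which drives amino acid stress genes, was at 141 and 62.7 FPKM with doxycycline, against 125 and 97.7 FPKM in the controls. Its target DDIT3 was at 39.2 and 8.23 FPKM with doxycycline, against 9.21 and 10.8 FPKM in the controls. TRIB3, another target, was at 162 and 56.6 FPKM with doxycycline, against 73.5 and 64.5 FPKM in the controls. All 3 were highest in doxycycline replicate 1, and they were picked from the list after their values were seen. Of the 8 regulators not named so far, NFE2L1 lay above both controls and BAP1 below both, while NFE2L3, KEAP1, BACH1, CEBPB, MAFG and MAFK overlapped. Of the 9 genes tested, SLC7A11, GSS, GGCT and CBS were higher in doxycycline replicate 1 than in replicate 2. GCLC, GCLM, GSR, CTH and MGST1 were higher in replicate 2. A part of any regulator in these orders was not tested.

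Over the 4 libraries, the tested genes with a profile closest to SLC7A11, by Euclidean distance between centred log2(FPKM + 1) values, were TLR3, RND3 and OSGIN1, at distances of 0.09, 0.10 and 0.13. TLR3, a receptor for double-stranded RNA, was at 2.90 and 2.54 FPKM with doxycycline, against 0.872 and 0.709 FPKM in the controls. RND3 was at 15.8 and 12.98 FPKM, against 7.07 and 6.50 FPKM in the controls. OSGIN1, an oxidative stress-induced growth inhibitor, was at 9.38 and 8.49 FPKM, against 4.23 and 3.80 FPKM. For GCLC the closest were HINT3, an RNA listed as RF00019, and FAM84B, at 0.08, 0.14 and 0.18. HINT3 was at 9.60 and 15.0 FPKM with doxycycline, against 5.34 and 4.90 FPKM in the controls, and FAM84B was at 17.8 and 26.3 FPKM, against 8.46 and 8.53 FPKM. With 4 libraries such closeness is a description alone.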

How the data were processed

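RNA of 769-P cells was sequenced in 4 libraries, 2 with doxycycline and 2 controls. The authors deposited 1 FPKM table per library, per the file headers. The submitters' processing notes list limma, HISAT2 2.0.5 and featureCounts 1.5.0-p3 without saying what each was used for. Genome build, strandedness and library size definition are not given in the sources used here. Coordinates of all 58735 genes equal GENCODE release 29 on GRCh38.

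Dividing FPKM times gene length by the worth of 1 read in that library gave whole reads for 100.0% of genes (tolerance 0.02 reads), and these sum to the depth. The library size implied by the FPKM was 97.2% and 101.0% of this depth in controls 1 and 2. It was 107.5% and 97.6% in doxycycline replicates 1 and 2. Differences are doxycycline minus control in log2(FPKM + 1), tested with limma-trend (limma 3.58.1, R 4.3.3), two-sided and without covariates. The 12029 genes averaging at least 1 FPKM entered, and Benjamini-Hochberg adjustment covered all of them. Threshold was an adjusted p under 0.05. Group means carry SDs over 2 libraries. The limma fit was also run on simulated counts with the same spread in every library. Here the doxycycline libraries differed widely from each other, so that run says little about these results. Python 3.11.15, pandas 2.3.3, numpy 2.4.6 and matplotlib 3.10.9 handled tables and plots.

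The 10 genes, the lists and the rules were chosen with earlier results of these data known. Named genes are the 10, USP35, the 2 genes of lowest p per list, and the 3 closest profiles to SLC7A11 and GCLC. The rule also allowed any of the 13 regulators, of which ATF4, DDIT3 and TRIB3 were given values after theirs were seen. Any other gene was chosen for its role or after its values were seen. Promoter sequences are RefSeq's, on GRCh38.p14, without the bases after the start. Alternatives covered pseudocount, filter, scaling, limma-voom on recovered reads, a replicate block and leaving out each library.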

Additional observations from a re-analysis of the deposited data

How the results depend on the processing

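Genes called numbered 0 of 12029 in the reported fit (2204 at an unadjusted p under 0.05), and 0 with a pseudocount of 0.1, without the filter, under quantile or median-of-ratios scaling, without mitochondrially encoded genes and with limma-voom on recovered reads. The count was 261 for genes averaging 5 FPKM or more and 227 with limma-voom and library quality weights, an alternative chosen after seeing the data. Of the 9 genes, 1 (SLC7A11) passed with the higher filter, which tested 7 of them, at a log2 difference of 1.08, but entered only through its doxycycline values. With quality weights 2 passed, SLC7A11 at 1.32 and GCLC at 1.34. Of the surrounding genes, 1 passed in each of these fits, where 3.77% of 6932 genes and 1.89% of 12029 genes were called. The higher filter tested fewer than the 86. The cause was not tested.

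The replicate numbers are shared between groups, but nothing in the labels says that they pair samples. Deviations of same-numbered libraries correlated at 0.207 across genes, over only 2 pairs. With a replicate block 784 genes, 2 of the 9 (SLC7A11 at 1.08 and GCLC at 1.15) and 4 of the surrounding genes were called.

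Leaving out 1 library at a time gave between 0 and 3942 genes called, 0 to 7 of the 9, and 0 to 32 surrounding genes, with 0 without either control. Log2 differences ranged from 0.95 to 1.21 for SLC7A11, 0.83 to 1.47 for GCLC, 0.0601 to 0.80 for GSR, -0.81 to -0.25 for GGCT, 0.60 to 0.78 for CTH, -1.16 to -0.24 for CBS 0.27 to 0.81 for MGST1, 0.16 to 0.44 for GCLM and 0.0621 to 0.36 for GSS. Genes above both controls numbered 6 or 7 under the other scalings and without 1 library, and those below numbered 1 to 2. No log2 difference of the 9 genes changed sign under any alternative. edgeR was not run, since the deposited values are FPKM. At this depth CTH rested on 17 to 72 reads and GSTP1 on 0.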
